A study of Mus musculus with 7 samples.

Results

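The cyclin-dependent kinase (CDK) inhibitors and the retinoblastoma family are the proteins that hold a cell in G1. They were taken here as 10 genes chosen by name, of the 21928 genes that the libraries hold. These were the 4 INK4 inhibitors *Cdkn2a*, *Cdkn2b*, *Cdkn2c* and *Cdkn2d*, the 3 CIP/KIP inhibitors *Cdkn1a*, *Cdkn1b* and *Cdkn1c*, and the 3 pocket proteins *Rb1*, *Rbl1* and *Rbl2*. Their transcripts were measured by bulk RNA-seq in testes of C57BL/6N mouse pups that were either wild type (WT, 4 libraries) or *Meioc* knockout (Meioc KO, 3 libraries). MEIOC is a germ cell factor that acts at the switch from mitosis to meiosis. All pups of both genotypes received an inhibitor of retinoic acid synthesis (WIN), at 0.1 mg per g of body weight daily from postnatal day 2 to 8, and then retinoic acid at 0.0125 mg per g on day 9. Testes were taken 6.75 days after the retinoic acid, and the labels call those of both genotypes preleptotene-enriched. The preleptotene stage holds the last S phase before meiotic prophase. Each library came from 1.5 whole testes of 1 pup, so it holds the somatic cells of the testis as well as germ cells. In such tissue, fewer cells of a type and less RNA per cell cannot be told apart.

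As background, INK4 proteins bind CDK4 and CDK6 and keep them from pairing with D-type cyclins. CIP/KIP proteins bind whole cyclin-CDK complexes, above all those of CDK2 with cyclin E or cyclin A. Pocket proteins bind E2F transcription factors and silence the genes that E2F drives, until phosphorylation by CDKs releases them and S phase begins. In the mouse testis, *Cdkn2c* and *Cdkn2d* are known for restraining the division of germ cells, *Cdkn1b* for ending the division of Sertoli cells, and *Rb1* for its roles in Sertoli cells and in spermatogonial stem cells.

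The libraries held between 12537852 and 20552702 estimated counts, and a count of 3, taken as the floor, corresponded to at most 0.236 CPM, the count scaled to a common library size. The scaling is by TMM, which corrects library size for composition. Transcripts of *Meioc* itself were counted at 466 to 718 CPM in WT and at 299 to 412 CPM in Meioc KO, so every library lay on the side its label gives. The gene-level counts do not show which exons were counted. WT replicate 1 and Meioc KO replicate 1 stood apart. Set against counting noise, each of these libraries differed less from the other (squared difference 11.5 times the noise) than from any library of its own genotype, the nearest of which lay at 14.3 and 15.2 times the noise. The summed level of 10 meiotic prophase markers was also lower in WT replicate 1, at 2552 CPM, than in the other WT libraries, at 3490 to 3801 CPM. Counts of calls are given with and without these libraries.

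All 10 genes passed the filter on low values (a length-normalised level, TPM, of at least 1 in at least 3 libraries), and 0 of the 10 passed an adjusted p of 0.05 in the quasi-likelihood test of edgeR, adjusted by Benjamini-Hochberg over 13630 genes. Among all tested genes, 11.1% were called, 7.77% as higher and 3.33% as lower in WT. That split rests on the scale: 70.0% of calls were higher in WT here, 47.5% with library size alone and 17.4% by limma on log2(TPM + 1). An unadjusted p under 0.05 was given to 4 of the 10 genes, *Cdkn2a*, *Cdkn2d*, *Rb1* and *Rbl2*, beside 30.3% of all genes. DESeq2 called 1 of the 10, *Cdkn2a*, beside 17.1% of all genes, 10.7% as higher and 6.42% as lower in WT. The log2 fold change of WT over Meioc KO was positive for 7 of the 10 genes and negative for *Cdkn1c*, *Rb1* and *Rbl2*, and the median over all tested genes was -0.01. The 4 *Cdkn2* genes were positive, with a median of 0.39. They include *Cdkn2a*, whose counts came almost wholly from a transcript that encodes no INK4 protein, as shown with its isoforms. The CIP/KIP genes had 2 positive values and 1 negative, and the pocket proteins 1 positive, *Rbl1*, and 2 negative. No test compared the families. The directions of the *Cdkn2* genes, *Rb1* and *Rbl2* were the same by DESeq2 and under each of the other scalings tried, RLE, library size alone and TPM. Genes whose CPM did not overlap between the genotypes numbered 2 of 10, *Cdkn2a* and *Cdkn2c*, both with WT above, which is a share below the 26.2% of all tested genes.

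**Figure D1:**
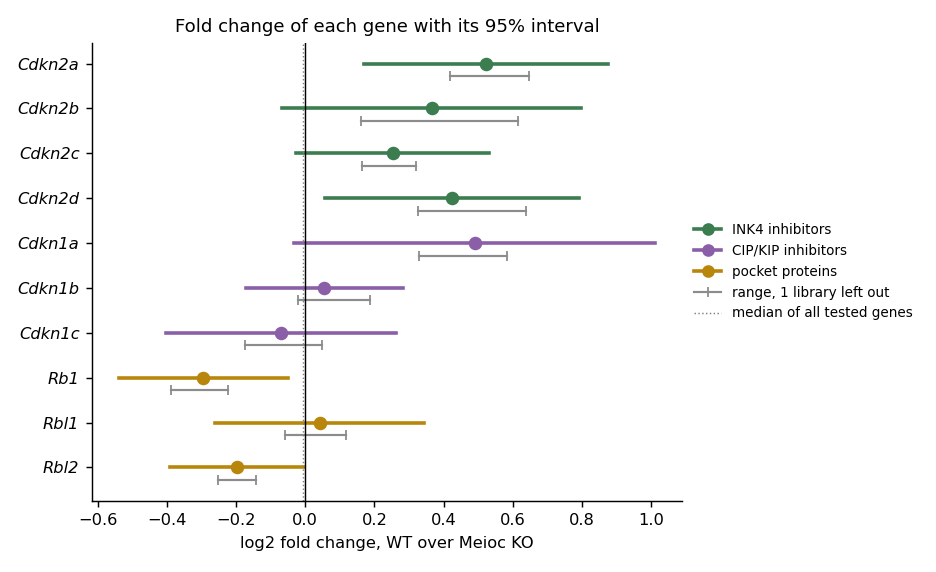
Log2 fold change of each gene, WT over Meioc KO, from edgeR (point) with its 95% confidence interval (thick line), coloured by family; thin grey lines give the range when 1 library was left out and the dotted line the median of all tested genes (-0.01). The 4 *Cdkn2* genes, grouped as INK4 inhibitors, lie between 0.25 and 0.52, and the intervals of *Cdkn2a*, *Cdkn2d*, *Rb1* and *Rbl2* do not include 0.

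Leaving out single libraries changed the calls. Without Meioc KO replicate 1, 3 of the 10 genes were called, all of them higher in WT: *Cdkn2a* at a log2 fold change of 0.65 (adjusted p = 0.0387), *Cdkn2b* at 0.61 (0.0466) and *Cdkn2d* at 0.64 (0.026). In that fit 15.5% of all genes were called, 9.35% as higher and 6.14% as lower. Without WT replicate 1, 2 were called, *Cdkn2a* as higher (0.58, adjusted p = 0.0433) and *Rb1* as lower (-0.39, adjusted p = 0.0202), beside 15.9% of all genes called, 10.6% as higher and 5.37% as lower. With replicate 1 of both genotypes left out, a fit added after the data were seen, *Cdkn2a*, *Cdkn2d* and *Rb1* were called, and so were 2805 genes in all (20.6%, with 12.4% higher and 8.21% lower in WT). Those libraries are the ones nearest to the other genotype, so that leaving them out widens the gap between the groups by construction.

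The *Cdkn2a* locus (chromosome 4 of GRCm38, 89274471 to 89294653, minus strand; ENSMUSG00000044303) encodes a pair of proteins with no common sequence. One is p16INK4a, the CDK4 and CDK6 inhibitor. The other is p19ARF, which stabilises p53 by binding MDM2 and is no CDK inhibitor. Their transcripts begin at separate first exons, 1α and 1β, that are spliced to the same exon 2, which is read in another frame. The junction sequences show what tells the transcripts apart: the last 30 bases of the first exon are in lower case and the first 20 bases of the shared exon 2 are in capitals.

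Cdkn2a-201 (p16INK4a), exon 1α chr4:89281986-89282015 to exon 2 chr4:89276966-89276985, GRCm38, minus strand: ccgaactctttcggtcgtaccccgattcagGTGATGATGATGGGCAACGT
Cdkn2a-202 (p19ARF), exon 1β chr4:89294334-89294363 to exon 2 chr4:89276966-89276985, GRCm38, minus strand: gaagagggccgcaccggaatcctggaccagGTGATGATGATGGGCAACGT

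The capitals are the same in both lines and the lower-case stretches are not. Exon 2 is entered at phase 0 from exon 1α and at phase 2 from exon 1β. Of the 31-base words in each transcript, 33.3% of those in Cdkn2a-201 and 36.6% of those in Cdkn2a-202 occur in that transcript and not in the other, so kallisto divides the reads of the shared part by estimation.

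Almost all *Cdkn2a* signal in these testes was given to the *Arf* transcript. Cdkn2a-202 held 97.5% ± 1.84 (SD, n = 4) of the gene's TPM in WT and 97.5% ± 4.31 (SD, n = 3) in Meioc KO, a difference of -0.03 percentage points (two-sided exact permutation test, p = 1.0, where the smallest p that 35 splits allow is 0.0571). Over all 7 libraries it received 1069.7 estimated counts. The p16INK4a transcript received 21.3 over all libraries, at most 7.08 in any of them, and 0 in WT replicate 3 and Meioc KO replicates 1 and 3. A difference in p16INK4a between the genotypes was therefore not detectable at this depth, and the values of *Cdkn2a* are in the main those of p19ARF.

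*Cdkn2a* was counted at 9.69, 10.4, 12.8 and 11.7 CPM in WT replicates 1 to 4 and at 8.997, 7.66 and 6.62 CPM in Meioc KO replicates 1 to 3. Every WT library was above every Meioc KO library, the nearest pair being WT replicate 1 and Meioc KO replicate 1. The log2 fold change was 0.52 (standard error 0.158, 95% confidence interval 0.17 to 0.88), the largest of the 10 genes and above that of 92.6% of all tested genes. Its adjusted p was 0.0605 by edgeR and 0.0348 by DESeq2.

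Its adjusted p by edgeR ranged from 0.0387 to 0.177 when 1 library was left out. In TPM the genotypes overlapped, at 15.3 to 19.4 in WT and 11.4 to 16.1 in Meioc KO, and limma on log2(TPM + 1) gave 0.25 (adjusted p = 0.213) where the median of all genes was -0.23. Across the 7 libraries, the tested genes whose log2 CPM followed *Cdkn2a* most closely were *Cinp*, which encodes a CDK2-interacting protein, at Pearson's r = 0.9951, *Pigo* at 0.992 and *Snx11* at 0.9885. They are the highest 3 of 10243 genes compared and are given as a description, since all values share the same libraries.

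Promoters of the 10 genes were searched for the letters of an E2F site, spelled TTTCCCGC, TTTGGCGC, TTTCGCGC or TTTGCCGC, on both strands, because pocket proteins act on genes through E2F. RefSeq (GRCm38.p6) gave 11 promoter windows, from 250 bases before to 50 after a start, for 8 of the genes; *Cdkn1c* and *Rb1* had no entry. The letters were found in 2 of the 11 windows and in 2.26% of all 32851 windows. One match lay at base -99 from the RefSeq start of the *Arf* transcript, which falls within the exon 1β given by GENCODE, and the other at base -18 from the RefSeq start of *Rbl1*. The windows around them are printed with the match in capitals.

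Cdkn2a, upstream of Arf, chr4:89294671-89294758, GRCm38.p6, minus strand: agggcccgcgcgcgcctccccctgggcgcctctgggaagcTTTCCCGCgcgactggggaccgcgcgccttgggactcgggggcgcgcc
Rbl1, chr2:157204535-157204622, GRCm38.p6, minus strand: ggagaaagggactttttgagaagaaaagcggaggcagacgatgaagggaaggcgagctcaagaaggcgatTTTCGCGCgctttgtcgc

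The letters CNCCTCAG, bound by the meiotic regulators STRA8 and MEIOSIN, were searched in the same way and were found in 2 of the 11 windows, one of *Cdkn1a* and one of *Cdkn2b*, beside 7.94% of all windows. In *Cdkn1a* they lie on the opposite strand, so that CTGAGGGG is what the printed strand shows. No member window held both motifs, and these matches describe letters, not binding.

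Cdkn1a, chr17:29093677-29093764, GRCm38.p6, plus strand: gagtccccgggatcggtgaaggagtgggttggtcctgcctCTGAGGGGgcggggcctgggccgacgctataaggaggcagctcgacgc

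*Cdkn2b* (chromosome 4, 89306299 to 89311039) lies beside *Cdkn2a* and encodes p15INK4b, an inhibitor that TGF-β signalling is known to induce. It was counted at 18.9, 14.9, 18.2 and 16.8 CPM in WT and at 17.5, 13.2 and 9.38 CPM in Meioc KO. Meioc KO replicate 1 fell among the WT libraries, and the other Meioc KO libraries lay below all of them. This gave a log2 fold change of 0.36 (standard error 0.193, 95% confidence interval -0.07 to 0.80, adjusted p = 0.233 by edgeR). It ranged from 0.16 without Meioc KO replicate 3 to 0.61 without Meioc KO replicate 1.

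*Cdkn2c* (chromosome 4, 109660876 to 109667189) encodes p18INK4c. Its level was 14.8, 14.2, 15.2 and 17.7 CPM in WT and 14.2, 11.6 and 13.2 CPM in Meioc KO. The groups did not overlap, but WT replicate 2 and Meioc KO replicate 1 were almost level. WT over Meioc KO was 0.25 on the log2 scale (standard error 0.125, 95% confidence interval -0.03 to 0.53, adjusted p = 0.205). It was past the threshold in 0 of the 7 fits with 1 library left out.

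*Cdkn2d* (chromosome 9, 21288410 to 21291407), which encodes p19INK4d, had the highest level of the 4 *Cdkn2* genes when its transcripts were summed. It was counted at 32.9, 37.3, 43.4 and 45.7 CPM in WT and at 37.8, 25.8 and 25.5 CPM in Meioc KO. Meioc KO replicate 1 lay within the WT range and the other pair of Meioc KO libraries below it. Its log2 fold change was 0.42 (standard error 0.164, 95% confidence interval 0.06 to 0.79, adjusted p = 0.118). With replicate 1 of both genotypes left out it was 0.72 (adjusted p = 0.00752). These values sum 2 transcripts and are not those of the full-length form alone. Cdkn2d-203, with a coding length of 498 bases, was given 10.6 to 19.25 TPM in WT and 10.8 to 20.2 TPM in Meioc KO. Cdkn2d-201, with 150, was given 19.7 to 22.97 TPM in WT and 9.33 to 22.4 TPM in Meioc KO.

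**Figure D2:**
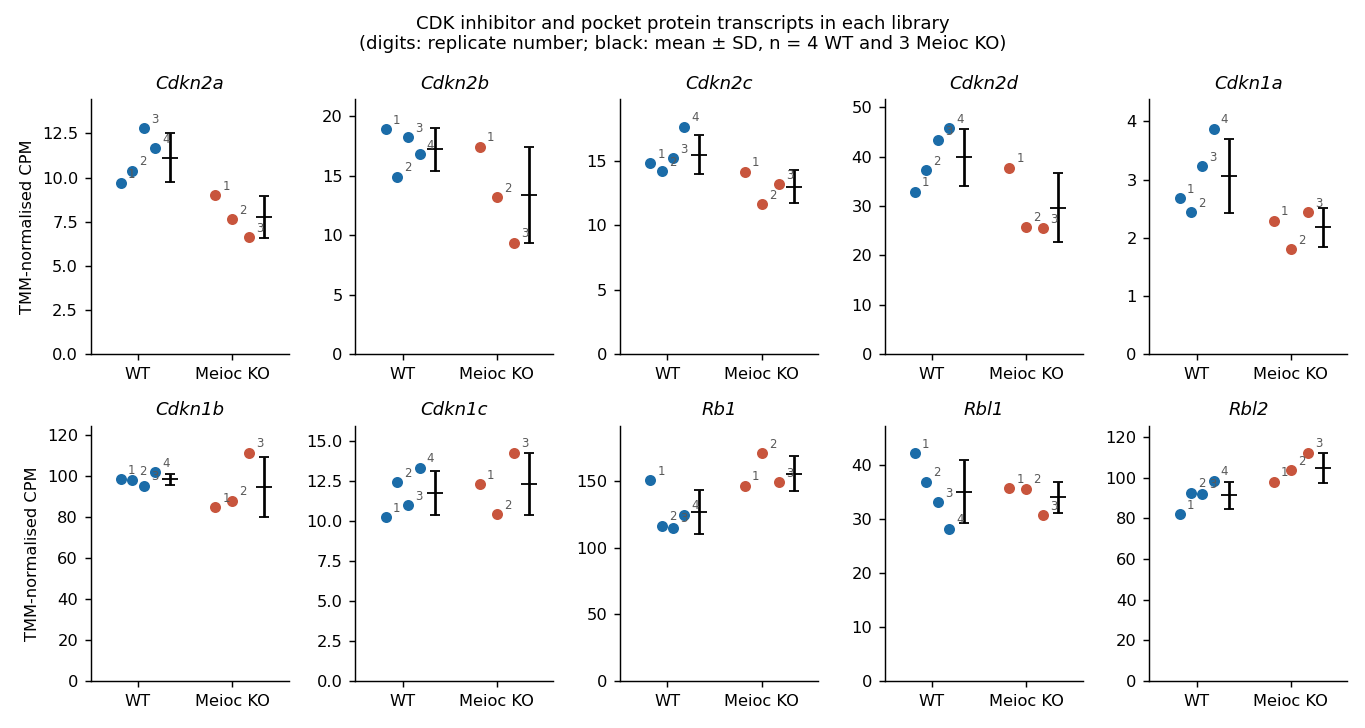
TMM-normalised CPM of the 10 genes in each library (blue, WT, n = 4; red, Meioc KO, n = 3; digits give the replicate number), with mean and SD in black and axes that start at 0. *Cdkn2a* and *Cdkn2c* do not overlap between the genotypes, *Cdkn2d* and *Cdkn2b* overlap through Meioc KO replicate 1, and *Rb1* overlaps through WT replicate 1 at 151 CPM.

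*Cdkn1a* (chromosome 17, 29090976 to 29100727) encodes p21CIP1, a target of p53 that stops the cycle after DNA damage. It was the lowest of the 10 genes, at 2.68, 2.44, 3.23 and 3.87 CPM in WT and at 2.29, 1.81 and 2.44 CPM in Meioc KO. The lowest WT library and the highest Meioc KO library were level, with WT replicate 4 above the rest. The log2 fold change was 0.49 (standard error 0.233, 95% confidence interval -0.03 to 1.01, adjusted p = 0.19), with the widest interval of the 10.

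*Cdkn1b* (chromosome 6, 134920401 to 134925513), which encodes p27KIP1, was the most abundant CDK inhibitor. It was counted at 98.3, 97.8, 95.1 and 102 CPM in WT and at 84.7, 87.8 and 111 CPM in Meioc KO. The Meioc KO libraries lay on both sides of the WT ones, which were close together. On the log2 scale the difference was 0.05 (standard error 0.101, 95% confidence interval -0.17 to 0.28, adjusted p = 0.747), and it turned negative with library size alone and in TPM.

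*Cdkn1c* (chromosome 7, 143458339 to 143461050) encodes p57KIP2 and is imprinted, with expression from the maternal allele. It was counted at 10.2, 12.4, 10.98 and 13.3 CPM in WT and at 12.3, 10.4 and 14.3 CPM in Meioc KO, and the groups overlapped. The difference on the log2 scale was -0.07 (standard error 0.149, 95% confidence interval -0.40 to 0.26, adjusted p = 0.779). The intervals of *Cdkn1b* and *Cdkn1c* leave room for a change of up to 0.28 and 0.40 on the log2 scale, so these data do not show that either was the same in both genotypes.

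*Rb1* (chromosome 14, 73183673 to 73325822) encodes the retinoblastoma protein. Its level was 151, 116, 115 and 125 CPM in WT and 146, 171 and 149 CPM in Meioc KO. WT replicate 1 stood with the Meioc KO libraries and the other WT libraries lay below all of them. This made a log2 fold change of -0.29 (standard error 0.109, 95% confidence interval -0.54 to -0.05, adjusted p = 0.105). It was -0.39 (adjusted p = 0.0202) without WT replicate 1.

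*Rbl1* (chromosome 2, 157145893 to 157204534) encodes p107, which binds the repressor E2Fs, and is itself known as an E2F target. It was counted at 42.2, 36.9, 33.1 and 28.2 CPM in WT and at 35.8, 35.7 and 30.7 CPM in Meioc KO. All Meioc KO libraries lay within the WT range. The log2 fold change was 0.04 (standard error 0.135, 95% confidence interval -0.26 to 0.34, adjusted p = 0.859), and it too turned negative with library size alone and in TPM.

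*Rbl2* (chromosome 8, 91070057 to 91123844) encodes p130, the pocket protein of resting cells. It was counted at 82.0, 92.6, 92.1 and 98.5 CPM in WT and at 98.1, 104 and 112 CPM in Meioc KO. Meioc KO replicate 1 and WT replicate 4 were almost level, and the other libraries were apart. For *Rbl2* the log2 fold change came to -0.20 (standard error 0.087, 95% confidence interval -0.39 to -0.003, adjusted p = 0.16).

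Levels can be compared between genes in TPM, which is normalised for length. Averaged over the 7 libraries, *Rb1* was highest at 70.2 TPM, followed by *Cdkn1b* at 62.3 TPM. *Rbl2* and *Cdkn2d* came next, at 34.6 and 34.4 TPM, then *Cdkn2b* at 19, *Cdkn2a* at 16.01, *Rbl1* at 14.9, *Cdkn2c* at 11.6 and *Cdkn1c* at 8.17 TPM. *Cdkn1a* was last, at 1.63 TPM. At the top, the order of the group means differed between the genotypes, which was not tested. In WT the mean of *Cdkn1b* (59.6 TPM) was above that of *Rb1* (58.6 TPM) and *Cdkn2d* (36.4 TPM) above *Rbl2* (30.02 TPM), while in Meioc KO *Rb1* (85.6 TPM) was above *Cdkn1b* (65.9 TPM) and *Rbl2* (40.6 TPM) above *Cdkn2d* (31.8 TPM). The replicate 1 libraries did not follow their group in full. In WT replicate 1, *Rb1* (75.7 TPM) was above *Cdkn1b* (65.6 TPM), and in Meioc KO replicate 1, *Cdkn2d* (39.85 TPM) was above *Rbl2* (37.0 TPM).

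Most neighbours in this order did not differ beyond their spread over libraries. The ranges of neighbours were apart at 3 steps, between *Cdkn1b* and *Rbl2*, between *Cdkn2d* and *Cdkn2b*, and between *Cdkn1c* and *Cdkn1a*. *Cdkn2b* was above *Cdkn2a* in 7 of 7 libraries although their ranges overlapped. *Rb1* stood at the 83.2nd percentile of tested genes by mean TPM and *Cdkn1a* at the 6.7th.

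**Figure D3:**
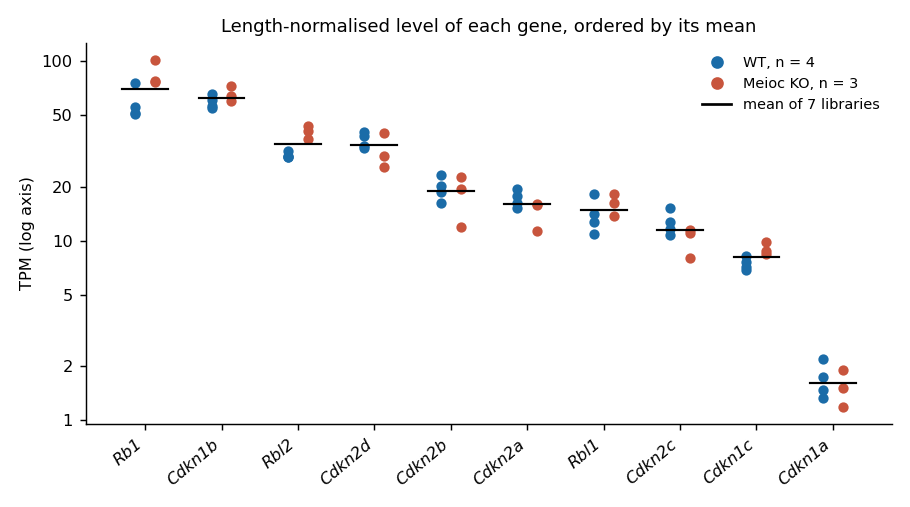
TPM of each gene on a log axis, ordered by the mean of the 7 libraries (black line), with 1 point per library (blue, WT, n = 4; red, Meioc KO, n = 3). *Rb1* and *Cdkn1b* are highest and *Cdkn1a*, at 1.19 to 2.20 TPM, is lowest; the red points of *Rb1*, *Rbl2* and *Cdkn1c* lie above the blue ones on this scale.

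The leading gene of each family, with its transcripts summed, was the same in every library. *Cdkn2d* held 42.4% ± 1.97 of the summed TPM of the 4 *Cdkn2* genes in WT (SD, n = 4) and 42.5% ± 1.86 in Meioc KO (SD, n = 3), and *Cdkn1b* held 85.3% to 88.4% of the CIP/KIP TPM in every library. *Rb1* made up 54.3% to 62.1% of the pocket protein TPM. Smaller shares varied between libraries as well, as for *Cdkn2c* at 11% to 18.3%, *Cdkn2b* at 19.9% to 27.9%, *Rbl1* at 10.4% to 14.8%, *Rbl2* at 23.8% to 32.3% and *Cdkn1a* at 1.61% to 3.08%. *Cdkn2a*, nearly all of it *Arf*, held 17.8% to 21.7% of the *Cdkn2* sum. The pocket proteins summed to 103 ± 14.0 TPM in WT (SD, n = 4) and to 142 ± 18.7 TPM in Meioc KO (SD, n = 3), with WT libraries at 93.5 to 123 TPM and Meioc KO libraries at 130 to 164 TPM. The *Cdkn2* sums overlapped, at 76.8 to 92.6 TPM in WT and 60.4 to 90.2 TPM in Meioc KO, as did those of the CIP/KIP genes, at 64.2 to 74.2 and 70.4 to 85.2 TPM.

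The scale moved these comparisons. In TPM, every WT library lay below every Meioc KO library for 3 of the 10 genes, *Rb1* (51.2 to 75.7 against 77.1 to 102 TPM), *Rbl2* (29.3 to 31.7 against 37.0 to 43.8 TPM) and *Cdkn1c* (6.86 to 8.27 against 8.48 to 9.91 TPM), and above for 0 of 10. On the same scale 28.4% of all tested genes had WT below and 4.93% had WT above. By limma on log2(TPM + 1), the change was -0.55 for *Rb1* (adjusted p = 0.0363) and -0.42 for *Rbl2* (adjusted p = 0.0247), where the median of all tested genes was -0.23 and 18.5% of all genes were called, 3.23% as higher and 15.3% as lower in WT. Relative to that median they were -0.32 and -0.20, close to their values relative to the median in CPM, -0.29 and -0.19.

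Several genes have more than 1 annotated transcript, and the division between them varied from library to library. *Cdkn2d* has Cdkn2d-203, with a coding length of 498 bases, and Cdkn2d-201, with 150. The full-length form held 31.6% to 47.3% of the gene's TPM in WT and 41.5% to 68.4% in Meioc KO, the highest being Meioc KO replicate 2. The *Cdkn2c* transcripts share a coding length of 504 bases and differ in total length (1106 and 2471 bases), and the longer one held 32.6% to 53.4% in WT and 43.2% to 76.7% in Meioc KO, again with Meioc KO replicate 2 at the top. For both genes the ranges of the genotypes overlapped.

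*Rbl2* was divided between Rbl2-201 and Rbl2-208, with coding lengths of 3405 and 3375 bases. The second held from 7.81% of the gene's TPM in WT replicate 2 to 44.6% in WT replicate 4, a span within WT that covers all Meioc KO values. *Cdkn1c* was assigned to Cdkn1c-202 alone in 6 libraries, while Meioc KO replicate 1 had 84.6 estimated counts on Cdkn1c-201, which was at 0 elsewhere. *Cdkn2b*, *Rb1* and *Rbl1* have 1 transcript each in the files. Shares of this kind are estimates, since reads from sequence that the transcripts of a gene share are divided between them by kallisto.

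**Figure D4:**
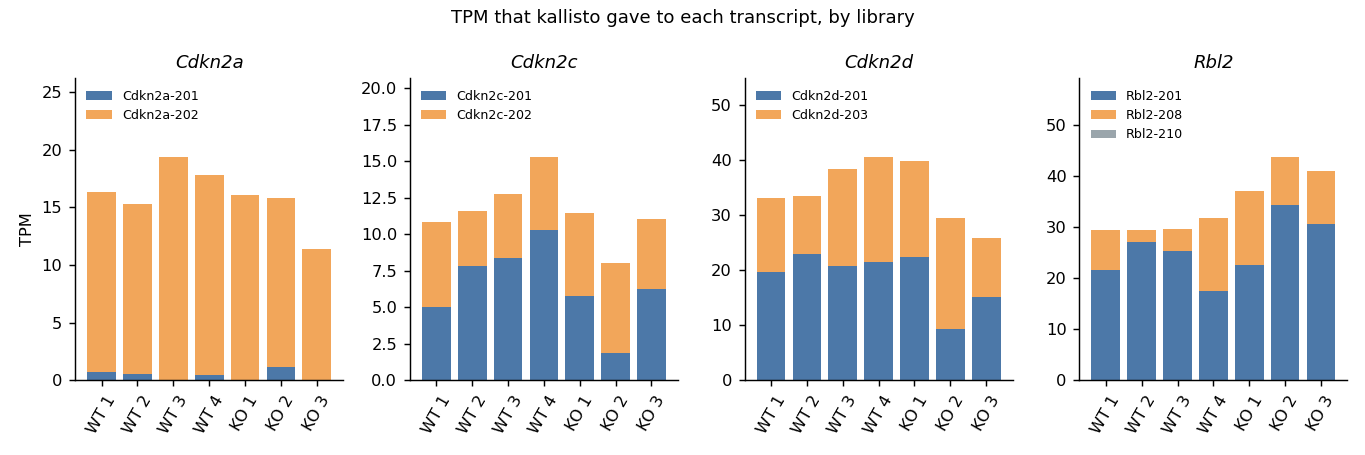
TPM that kallisto assigned to each transcript of *Cdkn2a*, *Cdkn2c*, *Cdkn2d* and *Rbl2* in each library, as stacked bars that start at 0. The *Arf* transcript (Cdkn2a-202) takes nearly the whole *Cdkn2a* bar, at 92.5% to 100.0%, while the divisions of *Cdkn2c*, *Cdkn2d* and *Rbl2* vary within each genotype.

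The rest of the pathway was followed through 88 genes in 7 lists. Of the 86 that were tested, 19 were called higher and 2 lower in WT, beside 7.77% and 3.33% of all tested genes, and the median log2 fold change was 0.04. This count depended on single libraries: from 21 calls it went to 4 without WT replicate 2 or without WT replicate 3, 8 without WT replicate 4, 5 without Meioc KO replicate 2 and 1 without Meioc KO replicate 3. Calls over all 13630 tested genes fell in the same fits, from 1513 to 296, 275, 478, 353 and 131, in that order. With replicate 1 of both genotypes left out, 33 pathway genes were called, beside 20.6% of all tested genes. The pathway count depended on the scale as well: 15 genes were called higher and 5 lower with library size alone, and 6 higher and 17 lower by limma on log2(TPM + 1), where the median of all tested genes was -0.23. Over all tested genes, library size alone called 814 higher and 899 lower, and limma 3.23% higher and 15.3% lower. The lists were chosen with earlier results of these data known, so their counts are a description.

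By list, the calls on log2(TPM + 1) were 2 higher and 5 lower in WT for G1/S cyclins and CDKs, 4 higher and 0 lower for E2F targets of replication, and 0 higher for the other lists, with 2 lower among E2F and DP factors, 2 among MuvB and MYB genes, 3 among turnover genes, 2 among regulators and 3 among corepressors. These stand beside 3.23% of all tested genes called higher and 15.3% called lower on that scale. List medians relative to the median of all genes moved less. They were 0.33 in CPM and 0.32 in log2(TPM + 1) for the replication targets, and -0.07 and -0.10 for the cyclins and CDKs. Of the called genes named in the following paragraphs, *Ccne1*, *Ccne2*, *E2f6*, *Smad3* and *Rrm2* were also called on log2(TPM + 1), while *E2f1*, *Ubac1*, *Ezh2*, *Kdm5a*, *Hdac1* and *Rrm1* had the same sign without passing the threshold and *Fbxw7* went to -0.0002. With replicate 1 of both genotypes left out, the calls of the lists numbered 3 for cyclins and CDKs, 3 for E2F and DP factors, 2 for MuvB and MYB genes, 3 for turnover genes, 6 for regulators (5 without Meioc KO replicate 1 alone), 5 for corepressors and 11 for replication targets. In that fit 20.6% of all tested genes were called. Without Meioc KO replicate 3, by contrast, 1 E2F or DP factor was called and 0 genes of the other lists, beside 131 of all 13630 genes.

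Upstream of the pocket proteins stand the G1/S cyclins and CDKs. Of 16 tested genes, 2 were called higher in WT and 0 lower, with a median log2 fold change of -0.08. The 2 were the E-type cyclins, which activate CDK2 and are the partners that CIP/KIP proteins bind. *Ccne2* was counted at 296 to 582 CPM in WT and 130 to 242 CPM in Meioc KO (log2 fold change 1.31, standard error 0.261, adjusted p = 0.018), with WT replicate 1 lowest of its group. *Ccne1* was counted at 12.1 to 20.9 CPM in WT and 6.72 to 10.3 CPM in Meioc KO (1.08, standard error 0.216, adjusted p = 0.0181). *Ccna1*, the A-type cyclin of later spermatocytes, was at or under the floor of 3 counts in every library.

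Among E2F and DP factors, 1 of 9 tested genes was called higher and 1 lower in WT, and the median was 0.19. *E2f1*, an activator that RB binds, was at 16.4 to 21.4 CPM in WT and 9.82 to 14.7 CPM in Meioc KO (log2 fold change 0.63, adjusted p = 0.0335). *E2f6*, a repressor that works without pocket proteins, went the other way, at 25.7 to 28.9 CPM in WT and 38.6 to 42.5 CPM in Meioc KO (-0.55, adjusted p = 0.0104). The MuvB core forms the DREAM complex with p107 or p130 and E2F4, and a separate activating complex with B-MYB. None of the 7 genes of the core and its MYB partners passed the threshold by edgeR, with 4 at an unadjusted p under 0.05, beside 30.3% of all tested genes, while DESeq2 called 1, *Mybl1*. Of those 4, *Lin9*, *Lin52* and *Mybl1* were higher in WT and *Mybl2* was lower. The lowest p was that of *Mybl1*, a regulator of male meiosis, at 78.6 to 119 CPM in WT and 67.8 to 70.2 CPM in Meioc KO (0.46, unadjusted p = 0.00605, adjusted p = 0.052).

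The corepressors that RB recruits to E2F sites had 4 of 12 genes called higher in WT and 0 lower, with a median of 0.06. The largest change among the 4 called was in *Kdm5a*, a histone demethylase found as an RB-binding protein, at 458 to 668 CPM in WT and 396 to 406 CPM in Meioc KO (log2 fold change 0.56, adjusted p = 0.0226). The smallest among the 4 called was in the histone deacetylase *Hdac1*, at 73.3 to 78.1 CPM in WT and 55.9 to 60.7 CPM in Meioc KO (0.35, adjusted p = 0.0194).

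E2F target genes of DNA replication had the highest median of the 7 lists, 0.32, with 6 of 16 called higher in WT and 0 lower, and 14 of 16 values above 0 (10 of 16 on log2(TPM + 1)). The calls of this list numbered 8 without WT replicate 1 or without Meioc KO replicate 1 and 11 with both left out, but 3 without WT replicate 2, WT replicate 3 or Meioc KO replicate 2, 0 without Meioc KO replicate 3 and 0 with the replicate block. Over all tested genes the calls numbered 2172, 2112 and 2805, then 296, 275, 353, 131 and 108, in the same order of fits. *Rrm2* and *Rrm1* encode the subunits of ribonucleotide reductase, which makes the building blocks of DNA. *Rrm2* was at 49.8 to 93.3 CPM in WT and 25.4 to 38.3 CPM in Meioc KO (log2 fold change 1.33, standard error 0.217, adjusted p = 0.0115). *Rrm1* showed the smallest called change, at 143 to 212 CPM in WT and 123 to 142 CPM in Meioc KO (0.47, adjusted p = 0.0482).

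The proteins of this family are also governed by destruction. Of 13 genes that turn over CDK inhibitors or cyclin E, 4 were called higher in WT and 0 lower, with a median of 0.02. *Ubac1*, a subunit of the ligase KPC that degrades p27KIP1 in G1, was at 56.4 to 84.1 CPM in WT and 43.2 to 52.6 CPM in Meioc KO (log2 fold change 0.64, adjusted p = 0.0228). *Fbxw7*, which marks cyclin E for degradation, was at 95.7 to 105 CPM in WT and 78.8 to 88.8 CPM in Meioc KO (0.27, adjusted p = 0.0499).

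Of 13 regulators of CDK inhibitor transcription, 2 were called higher and 1 lower in WT, with a median of -0.17. *Ezh2*, the Polycomb methyltransferase that silences the *Cdkn2a* locus in many cells, was at 45.4 to 59.1 CPM in WT and 33.0 to 39.6 CPM in Meioc KO (log2 fold change 0.56, adjusted p = 0.0175). *Smad3*, which carries TGF-β signals to *Cdkn2b* and *Cdkn1a*, was at 57.0 to 64.5 CPM in WT and 69.4 to 119 CPM in Meioc KO (-0.71, adjusted p = 0.0242), with Meioc KO replicate 1 nearest to WT.

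**Figure D5:**
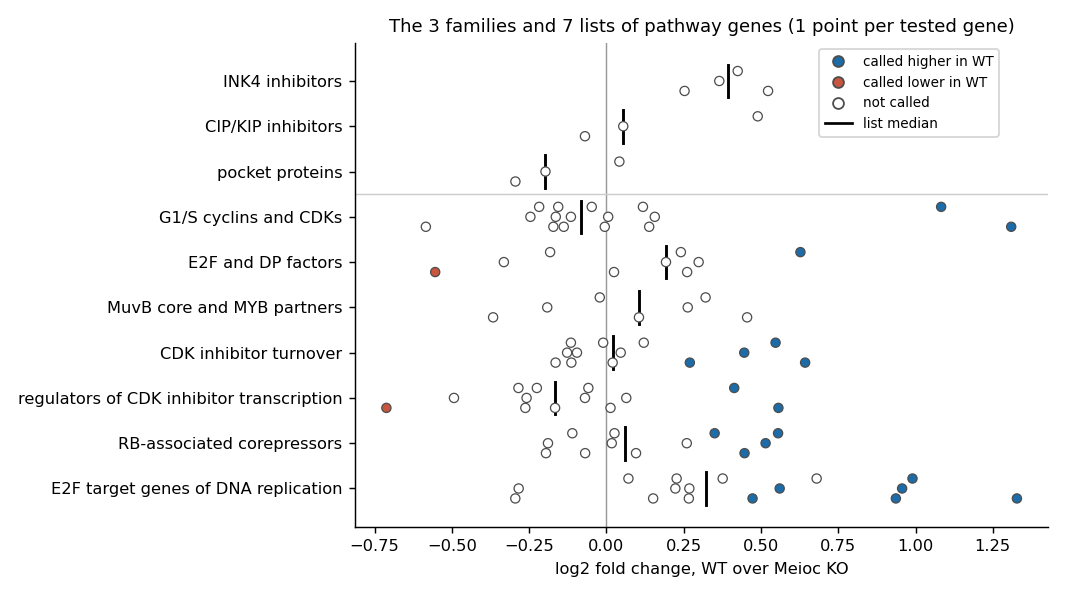
Log2 fold change, WT over Meioc KO, of every tested gene in the 3 families (above the grey line) and the 7 pathway lists, with 1 point per gene; filled points were called higher (blue) or lower (red) in WT at an adjusted p under 0.05, and black bars are list medians. No point of the 3 families is filled, and the replication targets hold the most filled points, 6 of 16.

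Cell-type markers moved with genotype as well. The 10 meiotic prophase markers summed to 2552 to 3801 CPM in WT and 1186 to 1439 CPM in Meioc KO, with 8 called higher in WT, and 7 general germ cell markers to 2103 to 2308 and 1451 to 1585 CPM, with 3 called higher. Those 3 were *Dazl*, *Tex101* and *Mael*. The germ cell markers were not uniform: 2 of the 7 had negative log2 fold changes, *Tdrd1* at -0.24 and *Dnd1* at -0.76, without passing the threshold. The 5 markers of differentiating spermatogonia summed to 500 to 705 CPM in WT and 328 to 430 CPM in Meioc KO, with 1, *Kit*, called higher. *Kit* was also the only 1 of the 5 whose values did not overlap between the genotypes. *Stra8* spread from 126 to 409 CPM in WT and from 77.1 to 158 CPM in Meioc KO. The 9 markers of undifferentiated spermatogonia went the other way in sum, at 187 to 216 CPM in WT and 268 to 399 CPM in Meioc KO, with 3 called lower in WT and *Nanos2* and *Eomes* under the filter. Those called were *Zbtb16*, *Nanos3* and *Lin28a*. This list was not uniform either: 1 of the 7 tested had a positive log2 fold change, *Id4* at 0.15. Its values overlapped between the genotypes, as did those of *Gfra1* (-0.14), *Ret* (-0.54) and *Etv5* (-0.47).

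Sums of somatic markers overlapped between the genotypes for all 5 somatic lists. Sertoli cell markers (9 genes) lay at 1032 to 1111 CPM in WT and 1079 to 1129 CPM in Meioc KO, with 1, *Gata4*, called lower in WT. Peritubular myoid markers (5 genes) lay at 512 to 586 and 492 to 571 CPM, with 1, *Des*, called lower in WT, macrophage markers (7 genes) at 321 to 338 and 294 to 374 CPM, and endothelial markers (6 genes) at 71.5 to 88.9 and 76.9 to 93.6 CPM. Leydig cell markers (6 genes) spread most within a genotype, at 266 to 553 and 313 to 627 CPM. Of the 6 spermatid markers, *Prm1*, *Prm2*, *Tnp1* and *Tnp2* were at or under the floor in every library. The part of these marker differences in the values of the 10 genes was not tested.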

How the data were processed

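Total RNA depleted of ribosomal RNA was sequenced with strand from 4 WT and 3 Meioc KO pups, grouped by the labels. Per the labels, the submitters' processing notes name cutadapt 1.8, kallisto 0.44.0 and mm10. The authors deposited kallisto's estimated counts and TPM per protein-coding transcript. TPM keeps no depth. From these, 43020 of 43139 transcripts were matched to genes of GENCODE vM21; the 119 others held 0.247% to 0.282% of counts and were left out.

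Estimated counts were summed by gene, rounded and tested with edgeR 4.0.16 (quasi-likelihood, TMM, no covariates, Benjamini-Hochberg over 13630 genes with TPM of at least 1 in at least 3 libraries), with DESeq2 1.42.0 (the study also used DESeq2, in another version) and limma 3.58.1, on TPM rescaled over the matched transcripts, as alternatives. Standard errors and 95% intervals follow from the F statistic. Other alternatives were RLE scaling, library size alone, pseudocounts of 1 and 0.1, no filter, TPM of at least 5, each library left out, and a replicate block. Depth is given with the results, and floors cover counting error only. In simulated data with 200 of 13630 genes changed by a log2 fold of 1, edgeR recovered 172 with 6 false calls, and DESeq2 168 with 17. No simulated library was made to stand apart from its group, and the largest change among the 10 genes was 0.52. The simulation therefore does not tell how often changes of their size would be called.

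The members and lists were chosen with earlier results of these data known. Named are all 10 members, *Meioc*, of each pathway list the called genes with the largest and smallest log2 fold change (or the one with the lowest p), and the 3 genes most correlated with the member of lowest p. *Ccna1* and the named markers were chosen after their values were seen.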

Additional observations from a re-analysis of the deposited data

Results flagged for a closer look

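In 37 groups of 4 WT libraries tested for a library far from the other 3 (Dixon's test at the 95% level), 3 were marked, where chance marks about 1 group in 20. *Ccne2* was lowest in WT replicate 1, at 295.8 CPM beside 538.2 to 581.5 CPM in the other WT libraries. The pocket proteins summed to 123.4 TPM in WT replicate 1 and to 93.5 to 98.2 TPM in the others. The markers of undifferentiated spermatogonia summed to 187.4 CPM in WT replicate 2 and to 212.1 to 216.1 CPM in the others. Meioc KO, with 3 libraries, was not tested in this way.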

How the results depend on the processing

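The 10 genes had 0 calls by edgeR under RLE scaling, library size alone, either filter and the replicate block, 1 by DESeq2, 2 by limma on log2(TPM + 1) and 2 on log2(TPM + 0.1) (*Rb1* and *Rbl2*), 0 to 3 with 1 library left out, and 3 with replicate 1 of both genotypes left out. All genes called numbered 1513, against 2331 by DESeq2, 2528 and 2510 by limma, 131 to 2172 with 1 library left out, and 2805 with replicate 1 of both left out; pathway genes called went from 21 to between 1 and 26, and to 33. Of all calls, 70.0% were higher in WT, 47.5% with library size alone and 17.4% and 17.6% by limma, where the median of all genes was -0.23 and -0.25. *Cdkn1b* changed sign under library size alone (-0.0213), limma (-0.1423 and -0.1443), without Meioc KO replicate 1 (-0.0204) and without replicate 1 of both (-0.0205). *Rbl1* did so under library size alone (-0.0328), limma (-0.2034 and -0.2167), without WT replicate 1 (-0.058), without Meioc KO replicate 3 (-0.0274) and without replicate 1 of both (-0.0205), and *Cdkn1c* without Meioc KO replicate 3 (0.049). With 1 library left out they ranged from -0.0204 to 0.1884 (*Cdkn1b*), -0.058 to 0.1188 (*Rbl1*) and -0.1738 to 0.049 (*Cdkn1c*). The other 7 of the 10 genes kept their direction under every alternative run. *Meioc* was past the threshold in 2 of the 7 fits with 1 library left out (adjusted p 0.00276 to 0.0638) and had an adjusted p of 0.106 under the block.

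Same-numbered libraries did not deviate together (correlations of -0.01, -0.09 and -0.17 for replicates 1 to 3). With so few libraries a genotype, these correlations cannot decide whether such libraries share a litter or batch, and the labels give only a number. With the replicate block, 108 genes in all and 0 pathway genes were called, against 478 and 8 for replicates 1 to 3 without the block, a fit added after the data were seen. At this depth and with 3 or 4 libraries a genotype, the 95% interval of the log2 fold change was narrowest for *Rbl2* (-0.39 to -0.003) and widest for *Cdkn1a* (-0.03 to 1.01).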
